A study of Mus musculus with 12 samples.

Results

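The genes described here are 51 components of the Wnt pathway, taken from a list by gene symbol and grouped by role: 11 ligands, 2 genes of ligand secretion, 9 Frizzled receptors, 4 other receptors, 4 secreted or membrane inhibitors, 9 cytoplasmic scaffolds and kinases, 2 genes of protein turnover and 10 nuclear factors. The whole table held 20696 genes with at least 1 read, and 47 of the 51 were among them. RNA was measured in Flk2-negative LSK cells, the mouse bone marrow fraction without lineage markers and with Sca-1 and Kit, in which blood stem cells and the earliest progenitors are found. There were 12 libraries, 3 for each genotype. Wild-type mice carry neither change. Mdmx-Tg mice carry an MDMX transgene, an extra source of the p53 inhibitor encoded by Mdm4. Pu.1-URE-/- mice lack, on both copies of Spi1, the upstream regulatory element of this gene, which encodes the transcription factor PU.1. Mdmx-Tg/Pu.1-URE-/- mice, called the double mutant here, carry both changes. The labels give each library a mouse number of its own, and give no age, sex or treatment and no promoter for the transgene. A gene counted as detected with 10 or more reads in at least 3 libraries.

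Wnt proteins are secreted lipid-modified ligands. Porcn attaches the lipid, Wls carries the ligand to the cell surface, and Frizzled proteins with Lrp5 or Lrp6 receive it, while Ryk and Ror2 are alternative receptors. Without ligand, a complex built on Axin1 and Apc holds beta-catenin, the product of Ctnnb1, so that Csnk1a1 and Gsk3b can phosphorylate it and Btrc can mark it for destruction. With ligand, beta-catenin escapes, enters the nucleus and displaces corepressors such as Tle3 from TCF factors. In blood stem cells the pathway is known for its part in self-renewal and in myeloid leukaemia.

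The libraries held 47271286 to 55067735 reads, and 12824 to 14117 genes reached 10 reads. The targeted gene Mdm4 stood at 163 to 535 CPM (counts scaled to the size of the library and by TMM factors) in the 6 transgenic libraries and at 35.8 to 93.9 CPM in the 6 others. Total Spi1 RNA, which the deletion of an upstream element need not remove, overlapped between the libraries with the element (3.69 to 37.98 CPM) and those without (0.0198 to 23.9 CPM). Of 7 stem and progenitor genes (Kit, Ly6a, which encodes Sca-1, Cd34, Slamf1, Flt3, Procr and Mecom), all had reads in every library, and 3 were lower in all 6 libraries without the element than in any with it. Kit stood at 165 to 261 CPM without and 270 to 328 CPM with the element, Slamf1 at 0.966 to 9.84 and 19.4 to 58.2 CPM, and Mecom at 7.79 to 19.7 and 20.9 to 116 CPM. Flt3, the gene of Flk2, by whose absence the cells were sorted, stood at 5.82 to 53.7 CPM over the 12 libraries. The share of reads on immunoglobulin genes was 31.2% in Wild-type 1, 10.3% in Wild-type 2 and 0.427% in Wild-type 3, and 0.131% to 10.6% in the other genotypes. Y-linked genes were high in Wild-type 2 and in double mutants 1 and 3 only. The 7 neutrophil markers summed to 3.30 to 18.1 CPM in the 6 libraries with the Spi1 element, with Ly6g at 0 in all of them, and to 23764 to 92051 CPM in the 6 without it. Of the 6 T cell and NK cell markers, whose sum was 94.6 to 312 CPM with the element and 1546 to 3949 CPM without it, Nkg7 alone separated the libraries, at 92.4 to 311 and 1537 to 3942 CPM. Klrb1c reached at most 9.23 CPM in any library, Cd3g 2.24, Cd8a 2.03, Cd4 1.11 and Cd3e 0.45 CPM. The 8 endothelial and stromal markers summed to 21.0 to 51.8 CPM with the element and 93.6 to 233 CPM without it, with Pecam1 and Pdgfrb as the 2 that separated the libraries and Cdh5 and Cxcl12 at 0 in all 12. The 7 monocyte and macrophage markers ran the other way, at 15.1 to 53.2 CPM with the element and 2.89 to 13.9 CPM without it, with Cd68 as the 1 that separated them. The 5 erythroid markers summed to 148 to 728 CPM with and 5.45 to 299 CPM without the element, and the 4 megakaryocyte markers to 54.2 to 154 and 8.12 to 58.0 CPM, with Ppbp at 0 in every library without it. All 7 neutrophil markers separated the same libraries as the element results below, and 0 of the erythroid markers and 1 of the megakaryocyte markers (Pf4) did. The part of any of these genes in the element results was not tested. In bulk RNA, fewer cells of a type and less RNA per cell cannot be told apart. The p-values rest on the spread between libraries of the same genotype, and nothing in the labels says more about how these were raised.

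The cells held RNA for the listed scaffolds, kinases and turnover genes of the pathway in every library, and little or none for most of its ligands. Of the 51 genes, 38 were detected, and 24 of these had 10 or more reads in all 12 libraries. All 9 scaffolds and kinases and both turnover genes were detected, as were 9 of 10 nuclear factors, 7 of 9 Frizzled receptors, 3 of 4 other receptors and both secretion genes. Only 4 of 11 ligands passed, namely Wnt4, Wnt5b, Wnt6 and Wnt10a, and 2 of 4 inhibitors, namely Sfrp1 and Kremen1. The 13 genes not detected were Wnt1, Wnt2b, Wnt3, Wnt3a, Wnt5a, Wnt10b, Wnt11, Fzd2, Fzd9, Ror2, Dkk1, Dkk3 and Pygo1. Wnt1, Wnt3, Wnt3a and Fzd2 had 0 reads in all 12 libraries. The other 9 appeared in single libraries or in a few: Wnt10b had 111 reads in Wild-type 1, Ror2 had 63 in the same library, Dkk3 had 116 in double mutant 2, and Wnt5a had 32 in Pu.1-URE-/- 1. At the threshold itself, Wnt6 passed with 15, 79 and 43 reads in Wild-type 1, Wild-type 3 and double mutant 3 and 0 elsewhere. Wnt11 just missed it with 10 reads in Wild-type 1, 35 in Wild-type 2 and 9 in Pu.1-URE-/- 3.

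**Figure D1:**
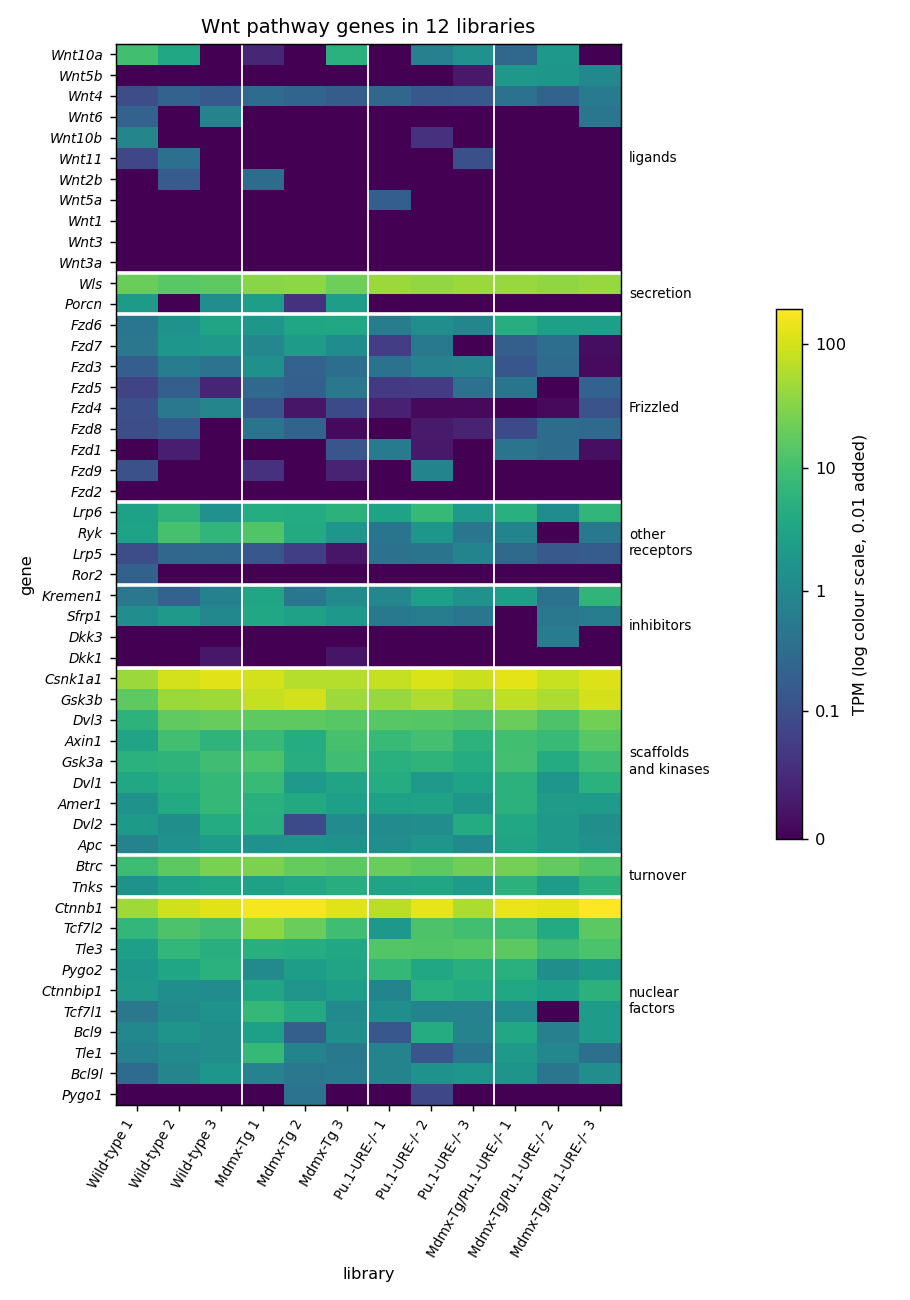
Colour gives the TPM (a length-scaled share of the library, deposited values summed per gene) of each of the 51 genes (rows, grouped by role and sorted by mean within a role) in each of the 12 libraries (columns, 3 per genotype), on a log scale with 0.01 added. Csnk1a1, Gsk3b, Ctnnb1 and Wls are bright in every column, while 9 of the 11 ligand rows, those with 0 reads in more than 6 libraries, are dark in most or all columns.

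Levels can be compared between genes in TPM, which takes transcript length into account. Summed over its transcripts Ctnnb1 had a mean of 120.39 TPM over the 12 libraries, but 70.6% of this was assigned to Ctnnb1-215, a short retained-intron model that lies within the overlap with Ulk4, and 35.4 TPM remained without it. Csnk1a1 had a mean of 91.2 TPM, Gsk3b 58.5 TPM, Wls 32.6 TPM and Btrc 19.1 TPM. The place of Ctnnb1 in this order thus rests on that model, being first with it and between Gsk3b and Wls without it. Among the other scaffolds, the Dishevelled gene Dvl3 had a mean of 15.7 TPM, above Dvl1 (4.26 TPM) and Dvl2 (2.31 TPM). Axin1 averaged 8.22 TPM and Apc 1.65 TPM. The TCF factor Tcf7l2 averaged 12.2 TPM and its relative Tcf7l1 1.81 TPM. At the cell surface the levels were lower. Lrp6 averaged 4.21 TPM and Lrp5 0.259 TPM, and Fzd6 was the highest Frizzled gene at 2.22 TPM, ahead of Fzd7 at 0.822 TPM and Fzd3 at 0.464 TPM. The detected ligands averaged from 0.126 TPM (Wnt6) to 1.94 TPM (Wnt10a), and Wnt10a reached that mean through a few libraries.

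Loss of the Spi1 element was the change that most often passed the test among these genes, and even there few did. All 38 detected genes, and none of the 13 others, were kept by the low-count filter and tested with edgeR's quasi-likelihood test, with p-values adjusted by the Benjamini-Hochberg method over the 15012 genes tested. Without the element, averaged over both transgene states (6 against 6 libraries), Tle3 and Wnt5b were called higher and Ryk and Porcn lower, 4 of 38, or 10.5%, against 11.9% of all genes tested. Wnt5b and Porcn reached 10 reads only in libraries of the higher group and so entered the test through that group, and their p-values below are given as descriptions. In Pu.1-URE-/- against Wild-type only Tle3 was called, as higher, against 4.71% of all genes called in either direction, 3.84% higher and 0.866% lower. In the double mutant against Mdmx-Tg Tle3 and Wnt5b were called higher and none lower, against 2.32% of all genes, 1.67% higher and 0.646% lower. DESeq2 called 7, 4 and 4 of the 38 in these comparisons, against 20.1%, 12.5% and 8.59% of all genes. At an unadjusted edgeR p below 0.05 the counts were 8, 5 and 5, against 26.9%, 19.8% and 16.9%. With counts of 1 to 4 against these backgrounds, the calls are described as single genes and not as a change of the pathway. The median log2 fold change of the 38 genes in the averaged comparison was -0.09, and that of all genes was near 0 (-0.00045).

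The transgene moved none of the 38 genes past the threshold. No gene of the whole table passed either: 0% were called in Mdmx-Tg against Wild-type, 0% in the double mutant against Pu.1-URE-/-, and 0% in the average of the 2. The genes not called include Mdm4, which was higher in all 6 transgenic libraries than in the 6 others. The counts of 0 thus do not show that the transgene changed nothing. The spread between libraries of a genotype, as edgeR's common coefficient of variation, was 0.796. Mdmx-Tg 3 decided the counts of 0 in 2 of the 3 comparisons. Without it 42 genes were called higher and 67 lower against Wild-type (0.695% of 15691), and 199 and 248 in the average (2.85%), of which Gsk3b was 1, while the comparison within Pu.1-URE-/- still called 0. At an unadjusted edgeR p below 0.05, 1 of the 38 genes stood out in the first of these comparisons, 5 in the next and 3 in the average, all higher with the transgene, where 10.5%, 10.7% and 16.3% of all genes did. DESeq2 called 1 (Gsk3b), 1 (Wnt5b) and 3 (Gsk3b, Ctnnb1 and Fzd6) genes, against 2.19%, 2.19% and 6.77% of all genes. The median log2 fold change of the 38 genes was 0.17, 0.35 and 0.15 in the 3 comparisons, beside 0.00, 0.01 and 0.00 for all genes. The interaction of transgene and element loss also called 0 of 38, against 0% of all genes, with 1 gene at an unadjusted p below 0.05 (Wnt6, from 15, 79 and 43 reads), against 5.8%, and none by DESeq2, against 1.29%.

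Separation of the libraries was also counted in CPM, without a test. In TPM some of these sets overlap, as given below for Ryk, Fzd7, Tcf7l1, Gsk3b and Ctnnb1. In Pu.1-URE-/- against Wild-type, Apc, Tle1, Dvl1, Tcf7l1 and Gsk3a also overlap in TPM. So do Lrp5, Pygo2 and Fzd4 in Mdmx-Tg against Wild-type, and Apc in the double mutant against Pu.1-URE-/-. The pairwise comparisons share groups, so their counts are not independent of each other. Without the element, Tle3 was the only one of the 38 genes with all 6 values above the 6 with it, against 4.89% of all genes tested, and Sfrp1, Ryk and Fzd7 had all 6 below, against 1.89%. With the transgene no gene separated the 2 sets of 6, against 0.626% of all genes higher and 0.506% lower. In Pu.1-URE-/- against Wild-type, Lrp5 and Tle3 were higher without overlap, against 15.9%, and Apc, Tle1, Dvl1, Sfrp1, Ryk, Fzd7, Fzd4, Tcf7l1 and Gsk3a lower, against 13.7%. In the double mutant against Mdmx-Tg, Lrp5, Wnt5b and Tle3 were higher (11.9% of all genes) and Porcn, Sfrp1, Ryk and Fzd7 lower (7.25%). In Mdmx-Tg against Wild-type, Ctnnb1, Gsk3b, Fzd5 and Tcf7l1 were higher (6.61%) and Lrp5, Pygo2 and Fzd4 lower (7.05%). In the double mutant against Pu.1-URE-/-, Apc, Fzd6, Gsk3b, Wnt5b and Fzd8 were higher (9.89%) and Fzd3 and Lrp5 lower (8.95%). Lrp5 was thus lower in CPM in the transgenic libraries of both backgrounds and higher without the element on both. Its averaged log2 changes of -1.16 (edgeR adjusted p = 0.441) and 1.06 (adjusted p = 0.366) did not pass the test. It had only 4 to 137 reads per library and is named after its values were seen. In TPM Mdmx-Tg 1 at 0.138 lay above Wild-type 1 at 0.0941.

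**Figure D2:**
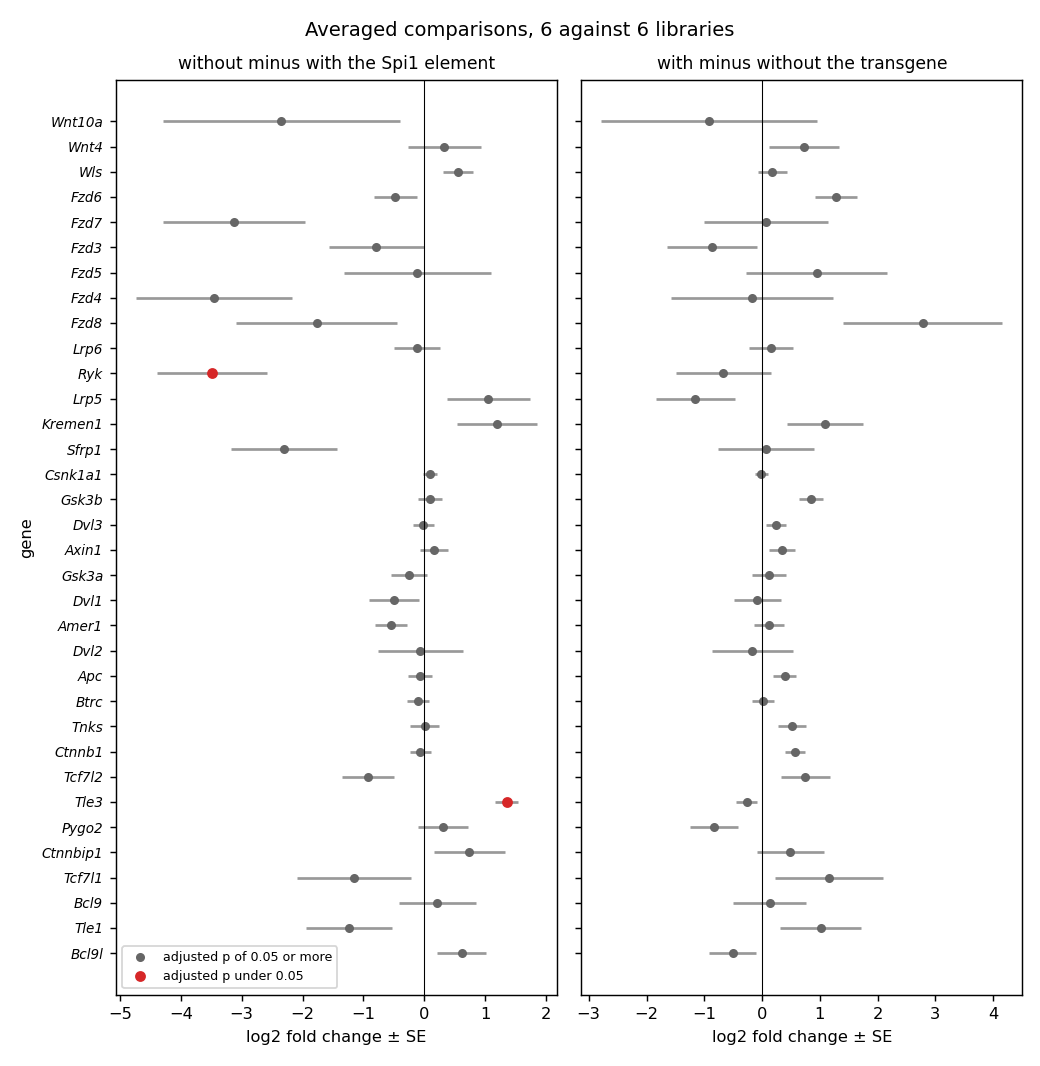
Points give the edgeR log2 fold change and bars its SE for the 34 tested genes that have more than 3 reads in every genotype, for loss of the Spi1 element (left) and for the transgene (right), each 6 against 6 libraries, with red for an adjusted p under 0.05. Tle3 at 1.35 and Ryk at -3.49 are the red points on the left, no point is red on the right, and Csnk1a1 sits at 0.10 and -0.02. Wnt5b, Porcn, Wnt6 and Fzd1 are not drawn.

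Among the ligands, Wnt5b, a ligand known mainly for signalling that does not use beta-catenin, was read almost only in the double mutant. It had 157, 196 and 92 reads in the 3 double mutants (3.16, 3.65 and 1.82 CPM), 0 in all Wild-type and Mdmx-Tg libraries, and 0, 0 and 1 read in Pu.1-URE-/-. All 3 double mutants thus lay above the 9 other libraries. Y-linked genes were high in double mutants 1 and 3 and in Wild-type 2, and the part of sex in Wnt5b was not tested. The pooled level was at least 153-fold higher than in Mdmx-Tg (edgeR adjusted p = 0.0486) and at least 159-fold higher than in Wild-type. The floor was 3 reads over a group, and both bounds cover counting error only. The 3 double mutants were also the only libraries with 10 or more reads, so the gene was tested only because it is high there, and its p-values add no support. Against the 1 read of Pu.1-URE-/- the ratio was 452, with a 95% counting interval of 80.7 to 17899 that covers counting error only, and edgeR gave an adjusted p of 0.41 where DESeq2 gave 0.0425. The call for element loss averaged over transgene status (edgeR adjusted p = 0.0293) rests on the double mutant alone, since Pu.1-URE-/- held 1 read. The interaction was not called for this gene. The call against Mdmx-Tg was lost when any of the 12 libraries was left out (adjusted p 0.0628 to 0.15). The call for element loss was lost without Wild-type 2 or 3, Pu.1-URE-/- 1 or 3, or any double mutant (highest adjusted p 1.00).

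All 446 reads of Wnt5b were assigned to the protein-coding transcript Wnt5b-202 (chromosome 6, 119432533 to 119467211, minus strand, GRCm38). The annotated gene runs to 119544347 and overlaps Fbxl14 on the opposite strand (119479668 to 119482630), which lies outside Wnt5b-202 and had reads in every library. The 250 bases before the start of Wnt5b-202 were taken from the RefSeq table of promoters (GRCm38.p6), because all reads of the gene were assigned to the transcript that starts there, and were searched on both strands for GAGGAA, the core that PU.1 binds, for the longer GAGGAAGT, which contains it, and for CTTTGAT, a TCF site. None of the 3 was found in this window, so no base is in capitals (chr6:119467212-119467461, minus strand, written 5′ to 3′).
Wnt5b: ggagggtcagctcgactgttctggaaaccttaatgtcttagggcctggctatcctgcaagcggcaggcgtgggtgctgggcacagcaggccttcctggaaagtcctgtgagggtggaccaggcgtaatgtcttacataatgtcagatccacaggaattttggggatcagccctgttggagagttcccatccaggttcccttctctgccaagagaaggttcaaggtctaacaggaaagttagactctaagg
Across all 32851 windows of this length in the table, 23.3% held GAGGAA, 2.44% held GAGGAAGT and 3.21% held CTTTGAT. The table held 32 of the 51 genes, with 40 windows, of which 9, 0 and 2 held the 3 motifs. Wnt5b has 3 RefSeq starts in the table, and the window of the one at 119449386, that of a transcript with 0 assigned reads, holds CTTTGAT.

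Wnt10a, a ligand of the beta-catenin branch, was the highest ligand by mean level, and varied widely within each genotype. For Wnt10a, the Wild-type libraries had 40.2, 8.66 and 0 CPM, the Mdmx-Tg libraries 0.0383, 0 and 13.5, the Pu.1-URE-/- libraries 0, 1.48 and 3.53, and the double mutants 0.523, 4.56 and 0 CPM. Each genotype thus had a library at 0 and the groups overlapped, with no call in any comparison (for element loss, log2 fold change -2.35 ± 1.94 SE, adjusted p = 0.496). The plasma cell gene Jchain had 23728, 7315 and 388 CPM in the 3 Wild-type libraries, 12130 CPM in Mdmx-Tg 3 and 9194 CPM in Mdmx-Tg 2. The 2 libraries highest in Wnt10a, Wild-type 1 and Mdmx-Tg 3, were also the 2 highest in Jchain, whereas Mdmx-Tg 2, next in Jchain, had no Wnt10a read. The 7 B cell and plasma cell markers summed to 495 to 25773 CPM with the element and to 654 to 3568 CPM without it, and their part in Wnt10a was not tested. Wnt4 was the ligand with reads in every library, from 29 to 108.

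**Figure D3:**
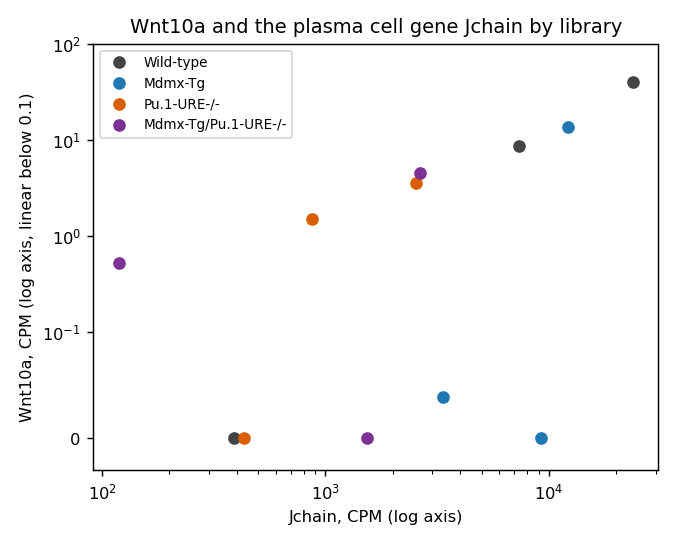
Each point is a library, coloured by genotype, with its Jchain level on the x axis and its Wnt10a level on the y axis, both in CPM on log axes (the y axis is linear below 0.1). Wild-type 1 at 23728 and 40.2 CPM is at the top right, and 4 libraries sit at 0 CPM of Wnt10a, from 388 to 9194 CPM of Jchain.

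Of the 2 secretion genes, Porcn (chromosome X, 8193848 to 8206525, GRCm38), the acyltransferase that puts the lipid on Wnt ligands, had no read in any of the 6 libraries without the Spi1 element. It had 284, 0 and 71 reads in Wild-type and 190, 2 and 216 in Mdmx-Tg. Wild-type 2 with 0 and Mdmx-Tg 2 with 2 reads thus lay at or near the level of the libraries without the element, and the 2 sets of 6 overlapped at 0. Pooled over the 6 libraries of each set, the level was at least 244-fold lower without the element (edgeR adjusted p = 0.0363, with the same floor). This bound covers counting error only, and not the spread between the libraries with the element. The 4 libraries with 10 or more reads all had the element, so the gene was tested only because it is high there, and this p adds no support. The call was kept in 2 of the 12 leave-one-out fits, without Wild-type 2 or Mdmx-Tg 2, and lost without any of the 10 others (adjusted p 0.0276 to 0.0816 over all 12), and without Wild-type 1, Mdmx-Tg 2 and double mutant 3 together, which earlier results of these data set apart, the adjusted p was 0.0919. In the single comparisons edgeR gave adjusted p = 0.155 for Pu.1-URE-/- and 0.202 for the double mutant, and DESeq2 gave 0.00786 and 0.01. The reads were split over 3 main transcripts, Porcn-203 with 40.5%, Porcn-207, a nonsense-mediated decay model, with 30.4%, and Porcn-202 with 22.6%.

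Wls, the carrier of Wnt ligands, was abundant in every library. For Wls, the Wild-type libraries had 92.7, 40.6 and 33.4 CPM, the Mdmx-Tg libraries 66.7, 99.2 and 55.9, the Pu.1-URE-/- libraries 101.7, 82.2 and 103.2, and the double mutants 86.6, 93.0 and 96.0 CPM. The 6 libraries without the element spanned 82.2 to 103.2 CPM and the 6 with it 33.4 to 99.2 CPM, so the sets overlapped. The log2 fold change for element loss was 0.55 ± 0.25 (SE, edgeR adjusted p = 0.183). This value depended on single Wild-type libraries: without Wild-type 1 it was 0.82 (adjusted p = 0.0183), and without Wild-type 3 it was 0.36 (adjusted p = 0.397). In Pu.1-URE-/- against Wild-type it was 0.78 (adjusted p = 0.247), 1.38 without Wild-type 1 (adjusted p = 0.0238) and 0.48 without Wild-type 3 (adjusted p = 0.578).

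No Frizzled gene passed the edgeR threshold in any comparison. For Fzd6, the highest of them, the Wild-type libraries had 3.64, 6.70 and 9.71 CPM, the Mdmx-Tg libraries 6.78, 14.4 and 16.03, the Pu.1-URE-/- libraries 2.60, 4.51 and 3.88, and the double mutants 14.3, 10.8 and 10.05 CPM. All 3 double mutants lay above all 3 Pu.1-URE-/- libraries, while Mdmx-Tg overlapped Wild-type. The log2 fold change for the transgene was 1.28 ± 0.36 (SE, unadjusted p = 0.0045, edgeR adjusted p = 0.145), made of 1.68 ± 0.52 in mice without the element (adjusted p = 0.406) and 0.89 ± 0.51 in mice with it (adjusted p = 0.569). DESeq2 called the average with an adjusted p of 0.0113.

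Fzd7 and Fzd4 were called lower without the element by DESeq2 and not by edgeR, and are named after their values were seen for that reason. Fzd7 stood at 3.74 to 11.3 CPM in the 6 libraries with the element and at 0 to 2.04 CPM in the 6 without it, with no overlap. In TPM Fzd7 overlapped, with Wild-type 1 at 0.496 and Pu.1-URE-/- 2 at 0.521 TPM. Its log2 fold change was -3.12 ± 1.17 (SE), with an adjusted p of 0.109 in edgeR. Fzd4 stood at 0.0589 to 4.53 CPM with the element and 0 to 0.733 CPM without it, and the overlap came from Mdmx-Tg 2 and double mutant 3. Its log2 fold change was -3.46 ± 1.28 (SE, edgeR adjusted p = 0.106), and -5.67 without double mutant 3 (adjusted p = 0.0236). In that second fit each library without the element held at most 5 reads of Fzd4. The gene was then tested only because it is high with the element, so the p of that fit adds no support. The other detected Frizzled genes were Fzd1, Fzd3, Fzd5 and Fzd8, with means of 0.123 to 0.464 TPM.

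Ryk (chromosome 9, 102834917 to 102908305, GRCm38), a Wnt receptor of the pseudokinase type, was lower in the libraries without the Spi1 element. For Ryk, the Wild-type libraries had 14.6, 28.9 and 12.7 CPM and the Mdmx-Tg libraries 28.8, 12.1 and 5.33 CPM. The Pu.1-URE-/- libraries had 1.06, 4.08 and 1.38 CPM and the double mutants 1.79, 0 and 1.35 CPM. The 6 libraries without the element, from 0 to 4.08 CPM, thus lay below the 6 with it, from 5.33 to 28.9 CPM. In TPM the sets overlapped, with Mdmx-Tg 3 at 1.80 and Pu.1-URE-/- 2 at 1.87 TPM. The level was 11.3-fold lower (log2 fold change -3.49 ± 0.91 SE, edgeR adjusted p = 0.0313).

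The Ryk call was lost in 6 of the 12 leave-one-out fits, without Wild-type 2, Mdmx-Tg 1, Pu.1-URE-/- 1 or 3, or double mutant 1 or 3 (adjusted p 0.00914 to 0.0867 over all 12). Without the 3 libraries named for Porcn the adjusted p was 0.102. It was 0.0563 in the fit with a term for the mouse-number series and 0.0917 with Jchain as a covariate, so the call was lost in both. In the single comparisons the log2 fold change was -3.10 in Pu.1-URE-/- (edgeR adjusted p = 0.202) and -3.88 in the double mutant (0.172). Most reads went to the coding transcripts Ryk-201 (57.9%) and Ryk-203 (31.9%). The 250 bases before the RefSeq start, 3 bases from that of Ryk-203, are shown because Ryk was called lower without the element by edgeR and its window holds the core that PU.1 binds. The core is found for 8 of the 32 listed genes with a window, namely Fzd7, Fzd9, Gsk3a, Pygo2, Ryk, Tcf7l2, Wls and Wnt11. Of these only Ryk was called by edgeR. Fzd7 was also lower in CPM in all 6 libraries, and Wls had a positive log2 fold change of 0.55. The window of Ryk has GAGGAA on the reverse strand at base -216, in capitals as TTCCTC, and neither of the 2 other motifs (chr9:102834670-102834919, plus strand, GRCm38.p6).
Ryk: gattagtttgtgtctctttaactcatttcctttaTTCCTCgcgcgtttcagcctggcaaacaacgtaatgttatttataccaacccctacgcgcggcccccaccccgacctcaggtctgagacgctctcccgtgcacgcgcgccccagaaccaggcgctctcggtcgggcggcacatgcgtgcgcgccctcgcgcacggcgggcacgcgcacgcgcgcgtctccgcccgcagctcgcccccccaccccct
Since 23.3% of all windows hold the same letters, the match is a description of the sequence and not of a bound site.

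**Figure D4:**
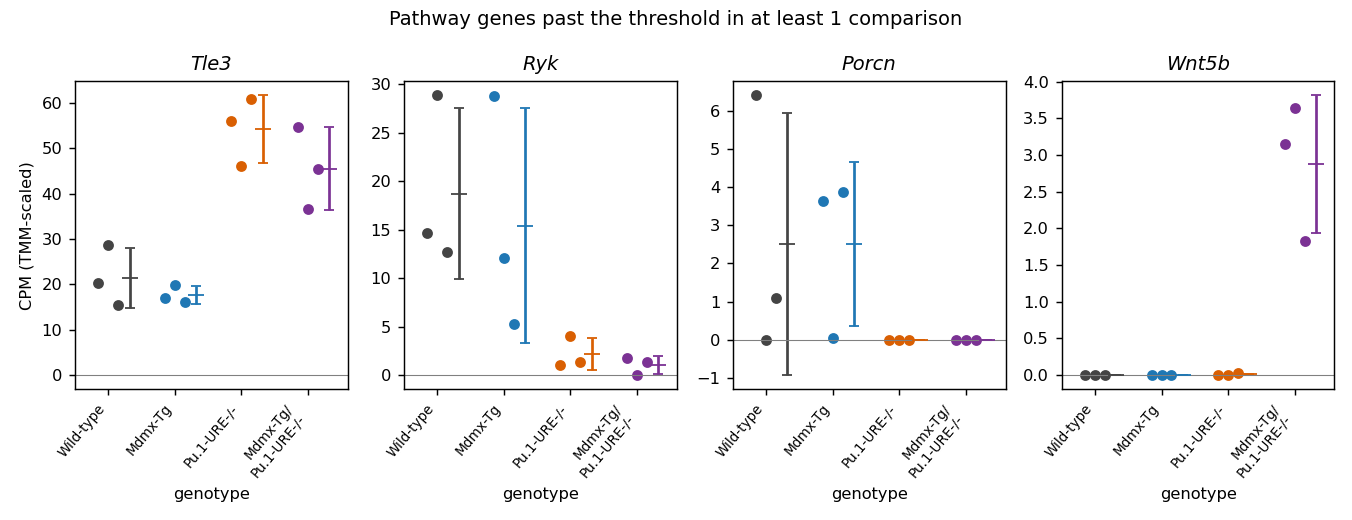
Points give the CPM of each library for the 4 genes called in at least 1 comparison, with the mean and SD of the 3 libraries of a genotype to their right. Tle3 is higher (36.5 to 60.8 against 15.5 to 28.6 CPM) and Ryk lower in the 6 libraries without the Spi1 element, Porcn is at 0 in those 6, and Wnt5b is above 1 CPM in the double mutant only.

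Lrp6, the coreceptor with the higher level, was called in no comparison. For Lrp6, the Wild-type libraries had 27.3, 23.6 and 8.40 CPM, the Mdmx-Tg libraries 21.0, 37.6 and 18.7, the Pu.1-URE-/- libraries 21.1, 26.95 and 15.2, and the double mutants 25.9, 7.89 and 27.2 CPM. All 4 genotypes overlapped, and the log2 fold change was -0.12 for element loss (adjusted p = 0.89) and 0.16 for the transgene (0.892). Of the inhibitors, Kremen1, which removes Lrp6 from the surface together with Dickkopf proteins, had 4.72, 1.07 and 2.75 CPM in the Wild-type libraries, 13.5, 2.49 and 5.88 in the Mdmx-Tg libraries, 4.64, 10.9 and 8.10 in the Pu.1-URE-/- libraries, and 10.17, 1.99 and 29.5 CPM in the double mutants. The genotypes overlapped and no comparison was called. Sfrp1, a secreted protein that binds Wnt ligands, stood at 3.21 to 13.4 CPM with the element and 0 to 2.64 CPM without it. These ranges did not overlap, and the log2 fold change was -2.31 ± 0.87 (SE), with an adjusted p of 0.111 in edgeR. It is named after its values were seen, as DESeq2 called it. Leaving out double mutant 1, which had no read, gave -2.07 with an edgeR adjusted p of 0.0207.

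The kinase Csnk1a1, which places the priming phosphate on beta-catenin, varied little between libraries in CPM and was called in no comparison. In TPM it ran from 43.4 to 127.6. For Csnk1a1, the Wild-type libraries had 210.4, 254.5 and 230.9 CPM, the Mdmx-Tg libraries 214.2, 191.4 and 202.4, the Pu.1-URE-/- libraries 204.8, 222.5 and 230.5, and the double mutants 268.9, 203.9 and 263.2 CPM. The genotypes overlapped in every comparison. The log2 fold change was 0.10 for element loss (95% interval -0.15 to 0.34) and -0.02 for the transgene (-0.26 to 0.23).

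Gsk3b, the kinase that adds the next phosphates, had higher values with the transgene on both backgrounds but did not pass the adjusted threshold. For Gsk3b, the Wild-type libraries had 263.4, 382.1 and 295.02 CPM and the Mdmx-Tg libraries 576.05, 881.6 and 420.2 CPM. The Pu.1-URE-/- libraries had 352.9, 434.3 and 329.1 CPM and the double mutants 520.4, 493.01 and 795.6 CPM. Every transgenic library thus lay above every library of its own background in CPM, although Mdmx-Tg 3 lay below Pu.1-URE-/- 2. In TPM both backgrounds overlapped. Mdmx-Tg 3 at 46.1 TPM lay below Wild-type 3 at 47.1, and double mutant 2 at 57.9 below Pu.1-URE-/- 2 at 59.8. The log2 fold change of the average was 0.85 ± 0.20 (SE, unadjusted p = 0.00153, edgeR adjusted p = 0.139), with 1.00 in mice with the element (adjusted p = 0.367) and 0.70 in mice without it (0.439). DESeq2 gave an adjusted p of 0.00308 for the average. Without Mdmx-Tg 3 the edgeR adjusted p was 0.0356, and without the 3 libraries named for Porcn the log2 fold change was 0.48 (adjusted p = 0.464). Of its reads, 99.7% were assigned to the coding transcript Gsk3b-201. Its relative Gsk3a stood at 6.24 to 14.8 CPM and was not called.

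Ctnnb1, the substrate, passed the edgeR threshold in no comparison. For Ctnnb1, the Wild-type libraries had 137.5, 154.6 and 134.4 CPM, the Mdmx-Tg libraries 182.9, 240.4 and 173.4, the Pu.1-URE-/- libraries 111.2, 176.6 and 97.2, and the double mutants 169.2, 191.9 and 241.2 CPM. In CPM Mdmx-Tg lay above Wild-type without overlap, and the double mutant overlapped Pu.1-URE-/- through Pu.1-URE-/- 2. In TPM Mdmx-Tg also overlapped Wild-type, with Mdmx-Tg 3 at 119.6 and Wild-type 3 at 124.8 TPM. The log2 fold change for the transgene was 0.57 ± 0.17 (SE, unadjusted p = 0.00705, edgeR adjusted p = 0.162, DESeq2 adjusted p = 0.0355), and 0.37 without the 3 libraries named for Porcn (edgeR adjusted p = 0.566). For element loss it was -0.07 (95% interval -0.44 to 0.31).

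The reads of Ctnnb1 need care as a measure of its coding RNA, since 55.6% of them were assigned to the retained-intron model Ctnnb1-215 at the end of the gene (chromosome 9, 120959216 to 120960507) and 14.7% to the coding Ctnnb1-201. Part of the gene also overlaps Ulk4 on the opposite strand, which stood at 1.48 to 9.25 CPM. The stretch on which both kinases act is in exon 3 of Ctnnb1-201 and is shown from the GENCODE transcript, codons 32 to 46, chr9:120950602-120950646, plus strand, GRCm38. Capitals mark codons 33, 37, 41 and 45, of which the last is known as the site of Csnk1a1 and the others as sites of Gsk3b, and codons 33 and 37 as those that Btrc reads once phosphorylated.
Ctnnb1: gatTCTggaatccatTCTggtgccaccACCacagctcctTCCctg
Protein levels and phosphorylation were not analysed here.

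**Figure D5:**
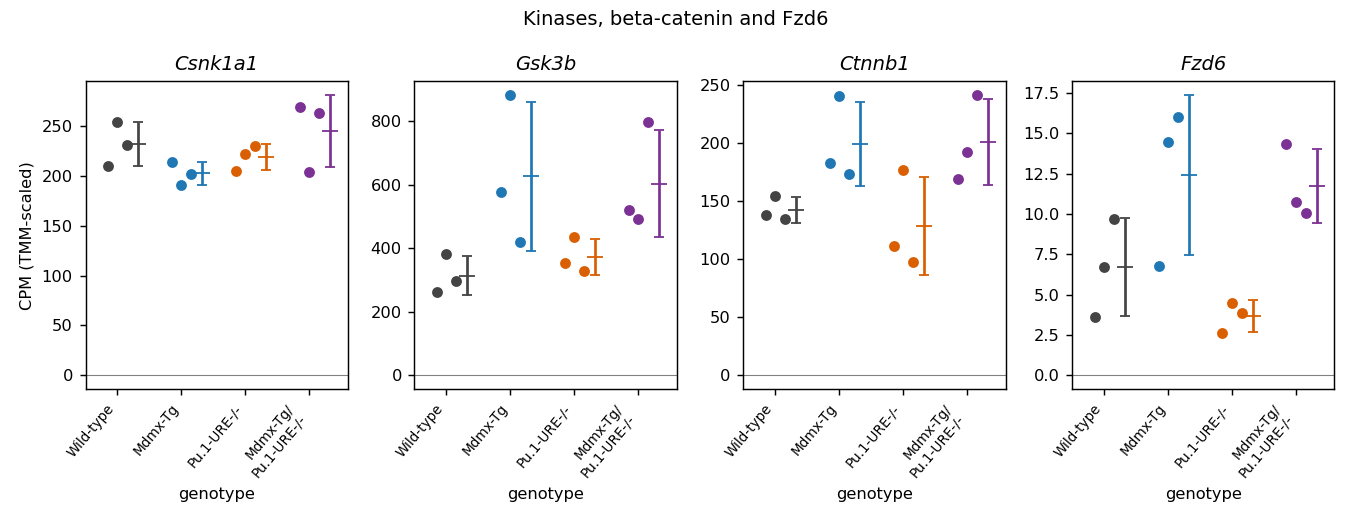
Points give the CPM of each library for Csnk1a1, Gsk3b, Ctnnb1 and Fzd6, with the mean and SD of the 3 libraries of a genotype to their right. Csnk1a1 stays between 191.4 and 268.9 CPM, while Gsk3b runs from 263.4 to 434.3 CPM without the transgene and from 420.2 to 881.6 CPM with it. None of the 4 passed the edgeR threshold.

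Btrc, the ubiquitin ligase subunit that recognises phosphorylated beta-catenin, was called in no comparison. For Btrc, the Wild-type libraries had 35.1, 32.6 and 42.3 CPM, the Mdmx-Tg libraries 48.5, 45.5 and 34.8, the Pu.1-URE-/- libraries 40.9, 29.8 and 47.5, and the double mutants 42.1, 37.2 and 24.6 CPM. The genotypes overlapped, and the log2 fold change was -0.10 for element loss and 0.02 for the transgene. Tnks, whose product marks Axin for removal, the Dishevelled genes, Axin1, Apc and Amer1 passed the threshold in no comparison. The largest of their averaged log2 changes by size was -0.55 for Amer1 with element loss (adjusted p = 0.213).

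Among the nuclear factors Tle3, a corepressor of the Groucho family that TCF factors recruit, rose with loss of the Spi1 element. For Tle3, the Wild-type libraries had 20.3, 28.6 and 15.5 CPM, the Mdmx-Tg libraries 17.0, 19.9 and 16.1, the Pu.1-URE-/- libraries 55.9, 46.1 and 60.8, and the double mutants 54.8, 36.5 and 45.4 CPM. All 6 libraries without the element lay above all 6 with it. The level was 2.55-fold higher (log2 fold change 1.35 ± 0.19 SE, edgeR adjusted p = 0.00111). On the 2 backgrounds the log2 fold change was 1.34 ± 0.27 (adjusted p = 0.0155) and 1.37 ± 0.27 (adjusted p = 0.0243), and the interaction, the difference between them, was 0.03 (95% interval -0.78 to 0.84). The averaged call held in all 12 leave-one-out fits (adjusted p 0.0013 to 0.00656) and was 1.35 (adjusted p = 0.0188) without the 3 libraries named for Porcn.

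The single comparisons of Tle3 were less secure. The call in Pu.1-URE-/- against Wild-type was lost without Wild-type 1 or 3 or Pu.1-URE-/- 1 or 3 (highest adjusted p 0.0849). The call in the double mutant against Mdmx-Tg was lost without any of the 3 Mdmx-Tg libraries, Pu.1-URE-/- 3 or double mutant 1 or 3 (highest adjusted p 0.128). Without the 3 libraries named for Porcn the adjusted p of the 2 comparisons was 0.086 and 0.166. Of the reads of Tle3, 88.4% were assigned to the coding transcript Tle3-217 (chromosome 9, 61373417 to 61418490), with 75.5% to 100% in single libraries. The neutrophil marker sum, given above, separates the same 6 libraries from the same 6, and its part in Tle3 was not tested.

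The other nuclear factors passed the threshold in no comparison. Tcf7l2 had 288 to 4512 reads per library, and its log2 fold change for element loss was -0.92 ± 0.42 (SE, adjusted p = 0.187). Tcf7l1 had 2.66, 3.28 and 3.35 CPM in the Wild-type libraries and 17.8, 13.03 and 3.44 CPM in the Mdmx-Tg libraries, without overlap, but 0 in double mutant 2. Tle1, another Groucho gene, had a log2 fold change of -1.23 ± 0.71 for element loss (adjusted p = 0.299), opposite in sign to Tle3. The beta-catenin inhibitor Ctnnbip1 and the coactivators Bcl9, Bcl9l and Pygo2 had averaged log2 changes for element loss of 0.21 to 0.74, with adjusted p-values above the threshold.

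Of a wider list of 80 other Wnt pathway genes, 51 were detected and tested. With element loss averaged over transgene status 5 of them (9.8%) were called higher and 0 lower, beside 8.08% and 3.81% of all genes, so the calls are described as single genes. They were Tcf7, Fbxw11, Hdac1, Rspo1 and Aes. In Pu.1-URE-/- against Wild-type Aes alone was called, and in the other 5 comparisons none was. The median log2 fold change of the 51 for element loss was 0.08. Tcf7, a TCF factor of stem and T cells, stood at 3.41 to 21.2 CPM with the element and 19.6 to 61.8 CPM without it, and its log2 fold change was 1.84 ± 0.44 (SE, edgeR adjusted p = 0.0223). Aes, a short Groucho relative that lacks the repressing part, had a log2 fold change of 0.82 ± 0.17 (adjusted p = 0.0121). Fbxw11, the close relative of Btrc, had 0.89 ± 0.24 (adjusted p = 0.0359), and the histone deacetylase Hdac1 had 0.62 ± 0.18 (adjusted p = 0.0464). Libraries with and without the element overlapped in CPM for Tcf7, Aes, Fbxw11 and Hdac1. For Aes, double mutant 3 at 43.0 CPM lay below Wild-type 1 at 57.8 CPM. In the double mutant against Mdmx-Tg the edgeR adjusted p of Aes was 0.339. No results of the alternative fits are given for the genes of this wider list.

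Rspo1, a secreted protein that strengthens Wnt signals through Lgr receptors, had 0 reads in all 6 libraries with the element. It had 268, 79 and 357 reads in Pu.1-URE-/- and 16, 43 and 0 in the double mutant, so that double mutant 3 was level with the libraries that have the element (edgeR adjusted p = 0.0175). All 5 libraries with 10 or more reads lacked the element, so the gene was tested only because it is high there, and this p adds no support. Of the 8 further Wnt ligands on the wider list (Wnt2, Wnt7a, Wnt7b, Wnt8a, Wnt8b, Wnt9a, Wnt9b and Wnt16) none was detected, and only Wnt9a had reads, 50 over the 12 libraries. Of the T cell and NK cell markers, Nkg7 moves with the same contrast as Tcf7, while Cd3e, Cd3g, Cd4 and Cd8a overlap between the 2 sets of libraries at the low levels given above. The part of Nkg7 in it was not tested.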

How the data were processed

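RNA from sorted bone marrow cells was enriched for polyA RNA and sequenced in pairs of 100 bp on a BGISEQ-500, per the labels' protocols. The submitters' processing notes name FastQC, Salmon and DESeq2 and the builds mm10 and GRCm38, and versions and settings are not given in the sources used here. Per the file headers, the deposited files hold Salmon's estimated counts per transcript, with no normalization, TPM from the authors' run, and the length of each transcript.

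Of 116248 transcripts, 115995 matched GENCODE M21 (GRCm38) with their version, and the 253 others were left out. Estimated counts and TPM were summed per gene, and counts were rounded. edgeR 4.0.16 (R 4.3.3) kept 15012 genes by filterByExpr (minimum count 10, minimum total 15) and scaled them by TMM. It fitted all 12 libraries by quasi-likelihood, each genotype with its own mean. A check on simulated data came first, with its pass mark set at a smaller spread between libraries than in these data. It thus does not show how the test performs at their spread. The threshold was an adjusted p of 0.05, and 7 comparisons were made. Alternatives were relative log expression factors, no low-count filter, a transcript length offset, a replicate block, the series of the mouse number, Jchain or Y-linked expression as a term, 3 libraries left out together, each library left out, only the groups compared, and DESeq2 1.42.0. The series was built here from the leading digits of the mouse number, with mouse 396 (Wild-type 3) put in series 38. It is not a batch given by the labels.

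The members and lists, including 80 other pathway genes (1 of them, Tle5, found under its older symbol Aes) and 8 marker lists, were chosen with earlier results of these data known. Values in every library are given for genes past the threshold, genes with an unadjusted p below 0.01, Csnk1a1, Ctnnb1 and the gene with the highest mean TPM of each role. Wnt6 and Fzd4, Fzd7, Lrp5, Sfrp1, Tcf7l1 and Tle1 were added after their values were seen.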

Additional observations from a re-analysis of the deposited data

How the results depend on the processing

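Of the 51 genes, 38 were detected as given, 39 with a minimum of 5 reads, 34 when all 3 libraries of a genotype had to reach 10 reads, and 29 at 1 TPM. The 18 pairs of libraries with the same replicate number in their titles had correlations of -0.153 to 0.0856, 0 of them above 0.1. Each group was first centred on its own 3 libraries, so these values cannot show that no pairing exists. All libraries numbered 1, and no others, were in mouse-number series 35. With the replicate number as a block, the number of the 38 genes called went from 4 to 2 for element loss and from 2 to 0 for the double mutant against Mdmx-Tg, beside 10.4% and 1.79% of all genes (11.9% and 2.32% without the block). With a term for the mouse-number series the same counts were 1 and 0 (9.82% and 1.04% of all genes), with Jchain as a covariate 2 and 0 (3.88% and 0.693%), and with Y-linked expression 2 and 0 (8.53% and 0.6%). In Pu.1-URE-/- against Wild-type the count went from 1 to 0 with the series (1.71% of all genes) or with Jchain (2.81%). It went to 3 with only those groups fitted (7.45%). In the double mutant against Mdmx-Tg it was 1 with relative log expression factors (2.11%), no low-count filter (1.53%) or a length offset (1.95%). It was 0 without the 3 doubted libraries (0.725%) or with only those groups fitted (1.77%). DESeq2 called 1 gene in Mdmx-Tg against Wild-type, 4 in Pu.1-URE-/- against Wild-type, 1 in the double mutant against Pu.1-URE-/-, 4 in the double mutant against Mdmx-Tg, 7 for element loss and 3 for the transgene. In the same order it called 2.19%, 12.5%, 2.19%, 8.59%, 20.1% and 6.77% of all genes. Leaving out each library in turn gave 0 to 1 calls in Pu.1-URE-/- against Wild-type, beside 1.91% to 5.01% of all genes. It gave 0 to 1 in the double mutant against Mdmx-Tg (0.87% to 2.21%) and 1 to 4 for element loss (6.09% to 11.2%). For the transgene it gave 0 to 1 (Gsk3b, without Mdmx-Tg 3, where 2.85% of all genes were called). The interaction kept 0 calls in every alternative run. Csnk1a1 in the double mutant against Pu.1-URE-/- turned from 0.16 to -0.045 (log2) with Y-linked expression as a covariate, and was called under neither. Over 31 fold changes of single genes, 566 alternative values kept their side of the threshold and their direction, 24 crossed it towards a call, 76 lost one and 1 changed sign; the cause was not tested. The call of Tle3 for element loss was kept in all 21 alternatives run. At this depth a gene with 0 reads in a group could still hold up to 3 reads there.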
